A study of Mus musculus with 20 samples.

Results

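Regulators of cell death from the Bcl2 family were followed in mouse hearts: Bcl2, Bcl2l1, Bcl2l2, Mcl1, Bax, Bad, Bid, Bnip3 and Bnip3l. A probe set, a group of array probes that reports 1 transcript, was taken where the platform annotation gave it a single gene symbol from this list. The array carried 11 such probe sets of 12488 in all, for 7 of the 9 genes: 3 for Bcl2, 2 each for Bcl2l1 and Bad, and 1 each for Bcl2l2, Mcl1, Bid and Bnip3. These 7 genes stand among 8251 with a probe set of their own symbol. No probe set was annotated with Bax, and Bnip3l appeared on a probe set that also carries another symbol, so both genes were not analysed here.

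Hearts came from 20 male mice, 1 array per animal and 5 animals in each of 4 groups. At 30 months of age there were mice fed alpha- and gamma-tocopherol (500 mg/kg of each), mice fed alpha-tocopherol (1000 mg/kg) and old controls on the control diet. Young controls, also on the control diet, were 5 months old. Supplements, both forms of vitamin E, were given from 15 months of age. All animals are labelled as hybrids of the B6 and C3H strains, and the label lacks the first-generation mark (F1) for 2 of the old controls, animals 1 and 4. The comparisons ask how these transcripts differed with age and, in old hearts, with either supplement.

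Proteins of the Bcl2 family decide whether the outer mitochondrial membrane is opened, which releases cytochrome c and starts the caspases. Survival members such as Bcl2, Bcl-xL (from Bcl2l1), Bcl-w (from Bcl2l2) and Mcl1 bind and restrain the pore formers and the BH3 proteins, among them Bad and Bid. Bnip3 is a related protein of the outer mitochondrial membrane that also recruits the autophagy machinery to mitochondria, and its gene is a classic target of the hypoxia factor HIF-1. Heart muscle cells are long-lived and rich in mitochondria, and loss of Mcl1 in the mouse heart is known to cause cardiomyopathy.

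Of the 3 genes whose transcripts passed a test in any comparison (Bnip3, Bcl2l1 and Mcl1), the start regions follow, each running from 250 bases before to 50 bases after an annotated transcript start (RefSeq, GRCm38.p6, 5′ to 3′ along the gene's own strand). Bcl2l1 has 3 annotated starts in this table, and the outermost is shown. Capitals mark ACGTG or GCGTG on either strand, the core letters of a hypoxia response element.
Bnip3, chr7:138909457-138909756, minus strand: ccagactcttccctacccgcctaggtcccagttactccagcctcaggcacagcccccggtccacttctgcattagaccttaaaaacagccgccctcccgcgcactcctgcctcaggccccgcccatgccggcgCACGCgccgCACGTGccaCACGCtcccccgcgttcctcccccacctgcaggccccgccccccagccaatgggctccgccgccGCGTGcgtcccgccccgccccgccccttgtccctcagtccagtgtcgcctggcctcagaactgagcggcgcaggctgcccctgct
Bcl2l1, chr2:152831679-152831978, minus strand: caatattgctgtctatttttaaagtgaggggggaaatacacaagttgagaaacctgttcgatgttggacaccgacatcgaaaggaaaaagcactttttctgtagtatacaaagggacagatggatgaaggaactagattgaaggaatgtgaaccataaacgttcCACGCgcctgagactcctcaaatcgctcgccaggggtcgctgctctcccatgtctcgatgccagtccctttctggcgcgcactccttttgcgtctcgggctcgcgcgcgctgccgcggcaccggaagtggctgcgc
Mcl1, chr3:95658471-95658770, plus strand: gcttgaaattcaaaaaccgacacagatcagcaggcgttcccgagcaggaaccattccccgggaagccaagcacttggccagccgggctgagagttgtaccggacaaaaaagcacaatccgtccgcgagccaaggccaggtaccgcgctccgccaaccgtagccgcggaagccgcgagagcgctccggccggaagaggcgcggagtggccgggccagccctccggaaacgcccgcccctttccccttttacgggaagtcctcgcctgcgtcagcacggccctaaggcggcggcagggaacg

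The Bnip3 window held ACGTG 2 times and GCGTG 3 times. The ACGTG pair overlaps, since it is 1 palindrome read on both strands, 107 and 108 bases before the start. The Bcl2l1 window held GCGTG 1 time, 86 bases before the start, and the Mcl1 window held neither. Among all 32851 windows of the same length in the table, 19.6% held ACGTG and 32.4% held GCGTG on either strand, and 43.8% held at least 1 of them. Of the 6 genes tested below, Bnip3 was the 1 with ACGTG in a window, and 3 (Bnip3, Bcl2l1 and Bad) had GCGTG. Counted by window, as the shares over all windows are, 1 of their 9 windows held ACGTG, 5 held GCGTG and 5 held at least 1 of them. A match of these letters is a description of the sequence and not a bound site.

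Values are linear intensities as deposited, and tests used log2(intensity + 58). A change is a difference of this log2 value ± its standard error, with 5 animals per group, and understates the fold change of dim probe sets. A call is an adjusted p below 0.05 from limma with Benjamini-Hochberg adjustment over 7453 probe sets, those left after removal of array controls and of the dimmest 40%. Of the 11 family probe sets, 8 passed this filter and stand for 6 genes. Left out as dim were Bid (25.4 to 562 over the 20 arrays), 1 probe set of Bcl2 (15.3 to 112) and 1 of Bcl2l1 (26.0 to 696). Without the filter none of these 3 was called in any comparison (limma, lowest adjusted p = 0.222, for Bid with alpha-tocopherol). At an unadjusted p below 0.05 there was 1 such value, for the dim Bcl2l1 probe set between both tocopherols and alpha-tocopherol (-0.87 ± 0.40). The median standard error of a difference over the family was 0.155, and the number of arrays limits the precision.

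Markers of heart muscle cells (9 of 10 listed genes on the array) summed to intensities of 591706 to 960959 on the 20 arrays, and none of them was at 0. T cell and lymphocyte markers (12 of 15 on the array) summed to 40063 in young control 3, against 3508 to 5360 in the other young controls and 3670 to 6433 in all old groups. With alpha-tocopherol the hybridization controls, bacterial transcripts added to each sample, read 0.85 higher than in old controls and the 18S ribosomal RNA signal 1.66 higher (log2, exact two-sided permutation p = 0.0079 for each, the smallest that 5 against 5 arrays allow, and 0.016 after Benjamini-Hochberg adjustment over 8 such tests). With both tocopherols these differences were 0.28 (exact permutation p = 0.16) and 0.52 (exact permutation p = 0.26). Arrays measure tissue RNA, in which fewer cells of a type and less RNA per cell cannot be told apart.

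**Figure D1:**
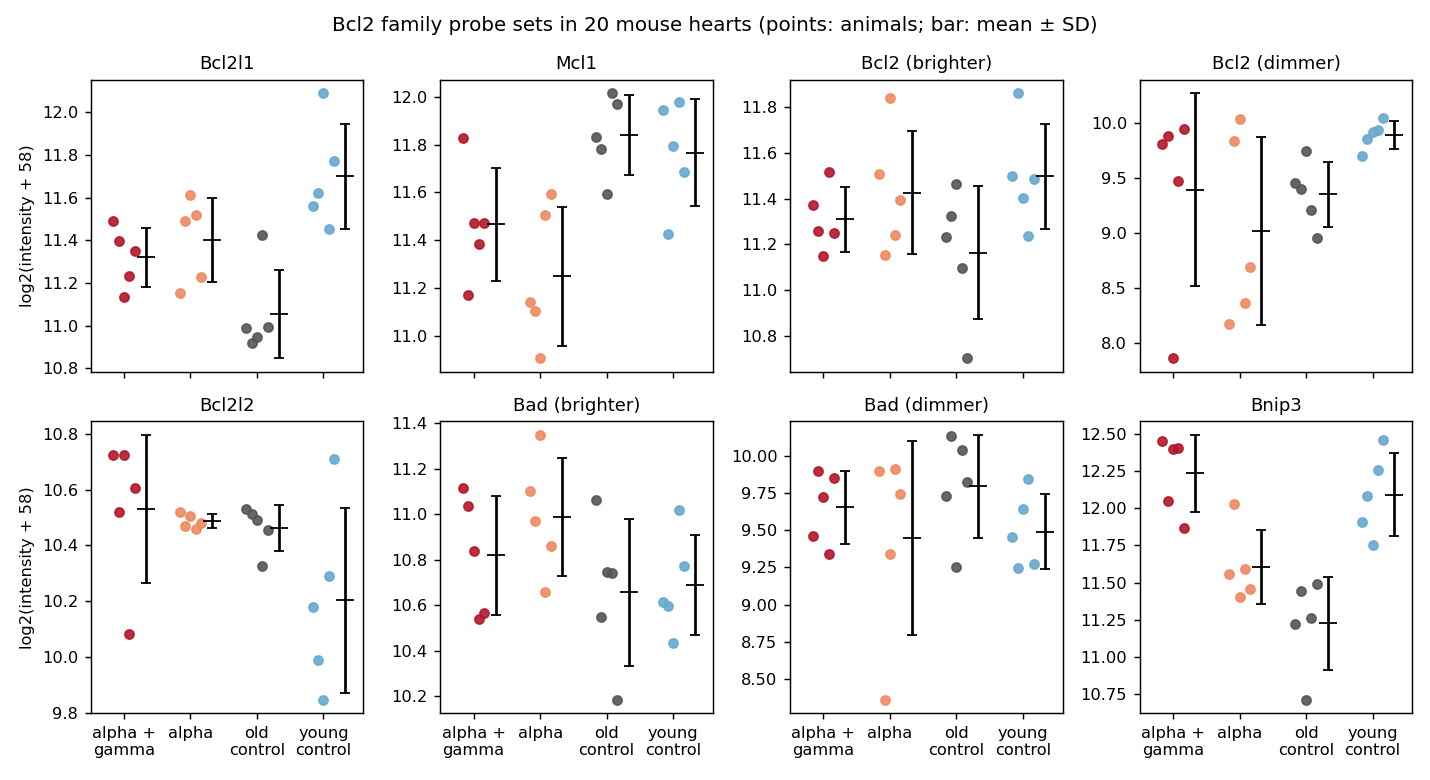
Values of the 8 tested Bcl2 family probe sets as log2(intensity + 58) (y axes, each with its own range) in mice fed alpha- and gamma-tocopherol, mice fed alpha-tocopherol, old controls and young controls (x axis). Points are animals, 5 per group, and black bars give the mean ± SD; the 5 old controls lie below the 5 young controls for Bcl2l1 and for Bnip3, and below the 5 animals fed both tocopherols for Bnip3.

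Bnip3 and Bcl2l1 fell in old hearts. Bnip3, the mitochondrial membrane protein, was 0.55 times and Bcl2l1, which encodes the survival protein Bcl-xL, 0.64 times the young control level. Both belong to the same family but act on opposite sides, Bnip3 as a promoter of mitophagy and cell death and Bcl-xL as a survival factor. The other 6 probe sets, for Bcl2, Bcl2l2, Mcl1 and Bad, did not pass the test. In all, 2 of 8 family probe sets (25.0%) were called, both lower, where 4.94% of all 7453 tested probe sets were called and 2.20% were called lower. The members were chosen with earlier results of these data known, so this share is a description and not a test of the family.

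Bnip3 read 2335.1, 2723.3, 1616.3, 2396.7 and 2824.0 in old controls 1 to 5. In young controls it read 3775.8, 4276.9, 3400.3, 4838.6 and 5585.0. Every old control lay below every young control, and the lowest was old control 3. The log2 means were 11.23 ± 0.31 in old controls and 12.09 ± 0.28 in young controls (SD, n = 5 each). The change was -0.87 ± 0.16 (limma, Benjamini-Hochberg adjusted p = 0.0024).

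The brighter Bcl2l1 probe set, the tested one, read 1976.0, 1875.6, 1915.1, 2686.5 and 1982.5 in old controls. In young controls it read 2966.6, 3096.8, 4303.5, 2741.3 and 3438.7. The groups did not overlap, but old control 4 lay close to the lowest young control, and young control 3 was the highest of all 20 arrays. The log2 means were 11.05 ± 0.21 in old controls and 11.70 ± 0.25 in young controls (SD, n = 5 each), a change of -0.65 ± 0.13 (limma adjusted p = 0.0040). The dim Bcl2l1 probe set, left out by the filter, read the other way, at 64.1 to 168 in old controls against 26.0 to 74.1 in young controls (0.56 ± 0.40, not called in the fit without the filter). Non-overlapping groups with the old controls lower occurred in 2.79% of all tested probe sets.

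Young control 3, the array with the T cell transcripts, was thus also the highest in Bcl2l1. Without it the Bcl2l1 change was -0.55 ± 0.13 (limma adjusted p = 0.012; 0.00067 to 0.027 over all alternatives). The Bnip3 change without it was -0.95 ± 0.17 (adjusted p = 0.0014; 0.00029 to 0.020 over all alternatives). With old controls 2, 3 and 5 alone, the ones labelled F1, the changes were -0.88 ± 0.20 for Bnip3 (limma adjusted p = 0.020) and -0.75 ± 0.14 for Bcl2l1 (adjusted p = 0.0071). Endothelial markers rose in 2 of 9 tested cases with age, Pecam1 (0.65 ± 0.14) and Cldn5 (0.95 ± 0.23), and fibroblast markers in 1 of 10, Tcf21 (0.61 ± 0.15), where 4.94% of all tested probe sets were called. Their summed intensities overlapped, at 29093 to 35409 in old controls against 24115 to 31891 in young controls for endothelial markers (9 of 10 on the array, none at 0), and at 79067 to 87521 in old controls against 72225 to 92381 in young controls for fibroblast markers (10 of 10, none at 0). For adipocyte markers, 5 of 7 listed genes were on the array, none at 0, and the summed intensity was 5351 to 6542 in old controls against 8210 to 11580 in young controls, with 0 of 3 tested genes called by limma (1 at an unadjusted p below 0.05). The part of these cells in the changes of Bnip3 and Bcl2l1 was not tested.

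Bcl2, the founding survival member, was read by 2 tested probe sets that share 1 source record in the annotation. The brighter of these gave 1607.9 to 2764.9 in old controls against 2352.0 to 3661.9 in young controls, and the change of -0.33 ± 0.15 did not pass (limma adjusted p = 0.22). The dimmer gave 438 to 801 in old controls against 776 to 1004.5 in young controls. All 5 old controls lay below the young median for both probe sets, but the dimmer is the noisier, with a residual SD of 0.63 against 0.24 (log2). Its change of -0.54 ± 0.37 did not pass either (adjusted p = 0.49).

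The survival gene Mcl1 differed by 0.07 ± 0.14 with age, with a 95% interval of -0.23 to 0.37, and Bcl2l2, which encodes Bcl-w, by 0.26 ± 0.15 (-0.04 to 0.56). Bcl2l2 ranged from 1225 to 1423 among old controls and from 862 to 1617 among young controls. For Bad, a BH3 protein held inactive by phosphorylation and 14-3-3 binding, the 2 probe sets gave 0.30 ± 0.25 (dimmer) and -0.03 ± 0.17 (brighter). None of these passed (limma adjusted p from 0.37 to 0.96).

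Mcl1 was lower in hearts of mice fed alpha-tocopherol, at 0.66 times the old control level. It was the single called family probe set of 8 (12.5%), where 21.7% of all tested probe sets were called in this comparison and 12.8% were called lower, so the share in the family was no higher than the background. Bnip3 and Bcl2l1, lower with age, were both higher than in old controls here without passing the test. The age and supplement comparisons share the old controls, so low values in these animals enter both with opposite sign.

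Mcl1, a short-lived survival protein, read 2197.0, 2138.9, 1858.5, 2845.8 and 3035.8 with alpha-tocopherol. Old controls read 3583.6, 3458.7, 3035.8, 4085.6 and 3959.4. The highest supplemented animal equalled the lowest old control, and the other 4 lay below all old controls. The log2 means were 11.25 ± 0.29 with alpha-tocopherol and 11.84 ± 0.17 in old controls (SD, n = 5 each), a change of -0.59 ± 0.14 (limma adjusted p = 0.0057; 0.0027 to 0.39 over all alternatives). Adding the hybridization signal to the model gave -0.43 ± 0.25 for Mcl1, and adding the 18S signal gave -0.55 ± 0.23, neither called (limma adjusted p = 0.39 and 0.21). With the F1-labelled old controls alone it was -0.53 ± 0.17 (adjusted p = 0.045). The hybridization signal (log2) was 13.32 to 13.78 with alpha-tocopherol against 12.55 to 12.92 in old controls. The 18S signal was 12.21 to 12.74 against 10.16 to 11.23. Neither measure overlapped, so diet and array signal cannot be told apart in this comparison.

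Some markers of other cells also differed on these arrays. Macrophage and myeloid markers, 14 of 15 on the array and none at 0, summed to 23707 to 38968 with alpha-tocopherol against 36038 to 44096 in old controls, and 5 of 10 tested fell, where 21.7% of all tested probe sets were called. Fibroblast markers fell in 6 of 10 tested cases and rose in 1, heart muscle markers rose in 4 of 9, and skeletal muscle markers rose in 3 of 5 and fell in 1. Endothelial markers fell in 2 of 9, close to the 21.7% called over all tested probe sets, of which 12.8% were called lower. Liver markers (8 of 11 on the array) summed to 1494 to 2481 with alpha-tocopherol against 4323 to 22171 in old controls. Their part in the Mcl1 change was not tested.

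Bcl2l1 read 2218.4, 2815.6, 3070.8, 2875.9 and 2343.1 with alpha-tocopherol. All 5 values lay above the old control median of 1976.0, while old control 4 (2686.5) lay within the supplemented range. The change was 0.35 ± 0.13 (limma adjusted p = 0.060; 0.022 to 0.41 over all alternatives). Without old control 4 it was 0.44 ± 0.13 (adjusted p = 0.022), without animal 1 of the alpha-tocopherol group 0.41 ± 0.14 (adjusted p = 0.038), and with F1-labelled old controls alone 0.45 ± 0.14 (adjusted p = 0.044), so whether it passed depended on which animals entered. With all animals it also passed under quantile normalization (0.38 ± 0.13, limma adjusted p = 0.043) and with array weights (0.35 ± 0.12, adjusted p = 0.036).

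Bnip3 read 2950.1, 4126.0, 2644.5, 3033.1 and 2757.1 with alpha-tocopherol. Animal 2 stood highest, and the lowest 2 lay within the old control range. The change of 0.38 ± 0.16 was not called (limma adjusted p = 0.096; 0.066 to 0.94 over all alternatives). It was 0.06 ± 0.28 after adding the hybridization signal, 0.81 ± 0.23 after adding the 18S signal and 0.25 ± 0.15 without old control 3 (limma adjusted p = 0.94, 0.068 and 0.26).

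The remaining probe sets did not pass with alpha-tocopherol. The brighter Bcl2 probe set gave 0.26 ± 0.15, while the dimmer gave -0.33 ± 0.37. At the dimmer one, animals 1, 4 and 5 of the alpha-tocopherol group read 231.6, 272.1 and 355.8, below every old control, and animals 2 and 3 read 857.0 and 992.2, above every old control. The Bad probe sets also pointed apart, at -0.35 ± 0.25 (dimmer) and 0.33 ± 0.17 (brighter). At the dimmer one animal 2 of the alpha-tocopherol group read 270.2 and the others 588 to 902, and without it the change was -0.074 ± 0.204. Bcl2l2 lay within a narrow band of 1348 to 1409 with alpha-tocopherol and differed by 0.02 ± 0.15 (95% interval -0.28 to 0.33).

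Bnip3 rose in hearts of mice fed both tocopherols, to 2.01 times the old control level. The other 7 tested probe sets of the family did not pass. The call was 1 of 8 (12.5%), where 6.43% of all tested probe sets were called and 2.67% were called higher. With members chosen as said above, this share too is a description and not a test.

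Bnip3 read 5540.8, 4183.8, 5346.9, 5359.1 and 3683.8 with both tocopherols. Every animal lay above every old control (1616.3 to 2824.0), a pattern found in this direction for 3.38% of all tested probe sets. The log2 means were 12.23 ± 0.26 with both tocopherols and 11.23 ± 0.31 in old controls (SD, n = 5 each), and the change was 1.01 ± 0.16 (limma adjusted p = 0.0011; 0.00033 to 0.011 over all alternatives). It was 0.90 ± 0.18 after adding the hybridization signal, 1.14 ± 0.16 after adding the 18S signal and 1.02 ± 0.20 with F1-labelled old controls alone. In order of mean level the groups were those fed both tocopherols, young controls, those fed alpha-tocopherol and old controls. The values with both tocopherols (3683.8 to 5540.8) covered nearly the same range as those of young controls (3400.3 to 5585.0). The age comparison and both supplement comparisons share the 5 old controls, so a low Bnip3 level in these animals enters all of them.

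Mcl1 read 3582.1, 2245.6, 2785.8, 2616.5 and 2784.2 with both tocopherols, and only animal 1 lay within the old control range. The change of -0.37 ± 0.14 did not pass (limma adjusted p = 0.12; 0.048 to 0.33 over all alternatives, called with array weights). Bcl2l1 differed by 0.27 ± 0.13 (adjusted p = 0.22), with all 5 animals (2192.3 to 2817.1) above the old control median. The brighter Bcl2 probe set differed by 0.15 ± 0.15 and the dimmer by 0.04 ± 0.37. Bcl2l2 differed by 0.07 ± 0.15, and the dimmer and brighter Bad probe sets by -0.14 ± 0.25 and 0.16 ± 0.17. On these arrays, with 6.43% of all tested probe sets called, fibroblast markers fell in 4 of 10 tested cases and rose in 1, endothelial markers fell in 3 of 9, and liver markers summed to 1602 to 3285 with both tocopherols against 4323 to 22171 in old controls. Macrophage and myeloid markers fell in 1 of 10, and skeletal muscle markers rose in 1 of 5. Erythroid markers had a median change of 0.97, with 0 of 3 tested genes called by limma (2 at an unadjusted p below 0.05). Their summed intensities overlapped, at 106732 to 188063 with both tocopherols against 113485 to 149447 in old controls (4 of 10 on the array). Old control 3 had the highest liver sum and the lowest Bnip3 value. Without it the Bnip3 change was 0.88 ± 0.15 with both tocopherols (limma adjusted p = 0.0031) and -0.74 ± 0.15 with age (adjusted p = 0.0073). The part of the other markers in the Bnip3 change was not tested.

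Between the supplements, at the same total dose, no family probe set was called (0 of 8, limma, where 0.564% of all tested probe sets were called). At an unadjusted p below 0.05 there was 1, Bnip3. It was 0.63 ± 0.16 higher with both tocopherols than with alpha-tocopherol alone, with a 95% interval of 0.29 to 0.97 (adjusted p = 0.066; 0.047 to 0.72 over all alternatives). The hybridization signal was 0.57 lower and the 18S signal 1.14 lower (log2) with both tocopherols than with alpha-tocopherol (exact two-sided permutation p = 0.0079 for each, 0.016 after Benjamini-Hochberg adjustment). Diet and array signal cannot be told apart here either. All 5 animals fed both tocopherols exceeded the median of the alpha-tocopherol group, whose animal 2 (4126.0) reached into the other group's range. Without that animal the difference was 0.73 ± 0.16 and passed (limma adjusted p = 0.047), while it was 0.84 ± 0.22 after adding the hybridization signal and 0.33 ± 0.19 after adding the 18S signal (limma adjusted p = 0.16 and 0.72). The 95% intervals were -0.08 to 0.52 for Mcl1 and -0.35 to 0.19 for Bcl2l1. Gamma-tocopherol lacks a ring methyl group that alpha-tocopherol has. The mixture also holds less alpha-tocopherol, so the lower alpha dose and the added gamma form cannot be told apart.

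**Figure D2:**
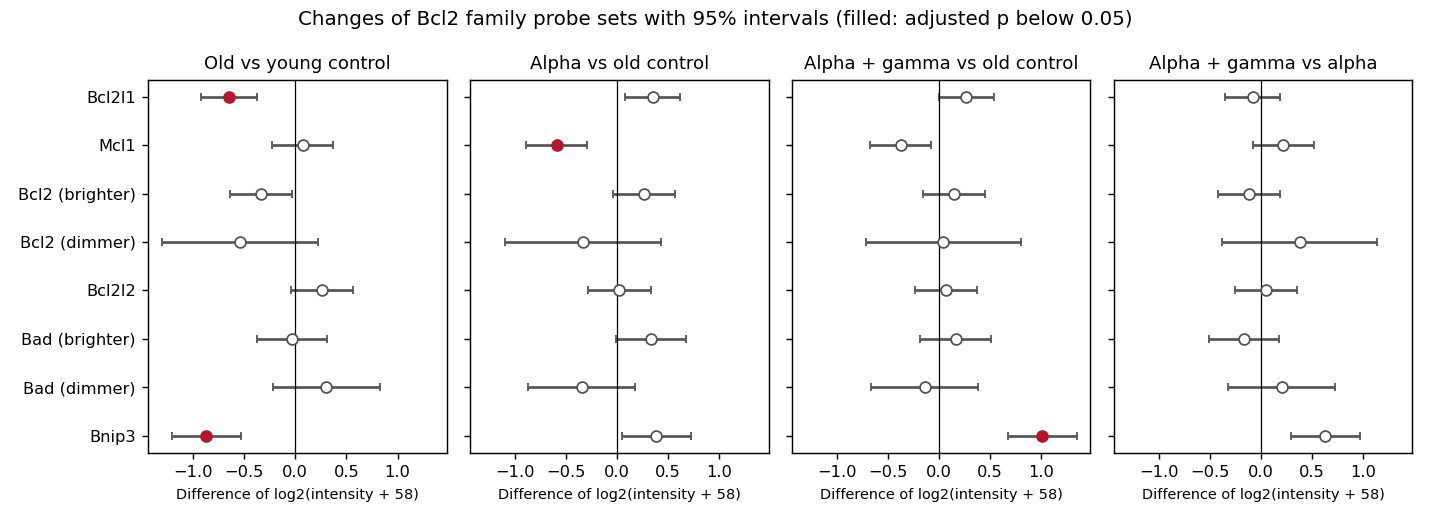
Differences of log2(intensity + 58) (x axes) for the 8 tested family probe sets (rows) in 4 comparisons, with limma 95% intervals, 5 animals per group; the first named group is on top of each difference, and filled points have an adjusted p below 0.05. Filled are Bcl2l1 and Bnip3 for age (-0.65 and -0.87), Mcl1 for alpha-tocopherol (-0.59) and Bnip3 for both tocopherols (1.01).

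Over the 8 tested probe sets the median change was -0.18 with age (0.01 over all 7453 tested probe sets), 0.14 with alpha-tocopherol (-0.02 over all) and 0.11 with both tocopherols (-0.01 over all). The called changes ran in both directions. Within groups, the residual SD ranged from 0.20 for Bcl2l1 to 0.63 for the dimmer Bcl2 probe set, against a median of 0.28 over all tested probe sets.

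The transcripts most like Bnip3 over the 20 arrays, by Pearson correlation among 5663 named genes, were Art3, an ADP-ribosyltransferase family gene (r = 0.85), Cnbp, a zinc finger nucleic acid binding protein (r = 0.83), and Myom2, a protein of the sarcomere's M-band (r = 0.82). These include the differences between groups. With the group means removed the correlations were 0.66, 0.71 and 0.60. Those most like Bcl2l1 were Anapc5, a subunit of the anaphase-promoting complex (r = 0.75), the antiproliferative gene Btg2 (r = 0.75) and Zap70, a kinase of T cell receptor signalling (r = 0.72), or 0.55, 0.73 and 0.66 after removal of the group means.

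Other genes of the cell death pathway were taken from lists, with each gene at its brightest tested probe set. In all lists the age and supplement comparisons share the old controls, so opposite signs between them are not independent results. In old against young controls 0 of 8 other Bcl2 family genes, 1 of 13 caspase, apoptosome and inhibitor genes and 0 of 8 death receptor genes were called by limma. The share over all tested probe sets was 4.94%. At an unadjusted p below 0.05 these lists held 1, 4 and 0. These counts cannot be set against the 4.94%, which is a share at adjusted p, and their own background is not given here. The called gene was Cycs, which encodes the cytochrome c released by the pore formers (0.73 ± 0.13, limma adjusted p = 0.0019). With alpha-tocopherol 1 of 8, 3 of 13 and 1 of 8 were called in these lists, against 21.7% of all tested probe sets, so these counts are close to the background. Bnip2 rose by 0.79 ± 0.14, but a further Bnip2 probe set read -0.63. Cycs (-0.39 ± 0.13) and the flavoprotein Aifm1, which can move to the nucleus in cell death (-0.54 ± 0.15), fell. The mitochondrial protease Htra2 rose by 0.52 ± 0.12, where a further probe set read -0.79, and the receptor adaptor Traf2 rose by 0.43 ± 0.14. With both tocopherols, where 6.43% of all tested probe sets were called, Bnip2 was the 1 call in these 3 lists (0.47 ± 0.14, and -0.47 at the further probe set). In these lists 2, 4 and 1 genes had an unadjusted p below 0.05, again without a background at that level beside them.

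Mitophagy, autophagy and mitochondrial dynamics genes, beside which Bnip3 acts, were called in 3 of 21 cases with age (4.94% of all tested probe sets). Sqstm1, the cargo adaptor p62, fell by 0.90 ± 0.15 on the log2 scale, and the outer membrane channels Vdac2 (0.70 ± 0.18) and Vdac3 (0.51 ± 0.13) rose. With alpha-tocopherol 5 of 21 rose and 5 fell, where 21.7% of all tested probe sets were called. Among them Sqstm1 (0.59 ± 0.15) and the Atg8 family members Gabarap (0.48 ± 0.14) and Map1lc3a (0.47 ± 0.10) rose, and Vdac2 (-1.23 ± 0.18), Vdac3 (-0.46 ± 0.13) and Ppif, the cyclophilin of the permeability transition pore (-0.82 ± 0.13), fell. With both tocopherols 3 of 21 rose and 2 fell (6.43% of all tested probe sets were called), namely Sqstm1 (0.65 ± 0.15), Gabarapl2 (0.43 ± 0.08) and Map1lc3b (0.38 ± 0.11) against Vdac2 (-0.74 ± 0.18) and Ppif (-0.995 ± 0.126). The median over this list was -0.02 in the age comparison, -0.09 with alpha-tocopherol and 0.03 with both tocopherols.

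Hypoxia response genes, of which Bnip3 is one by its regulation, were called in 1 of 19 cases with age, the glycolytic enzyme Pgk1 (0.55 ± 0.11), against 4.94% of all tested probe sets. With alpha-tocopherol 6 of 19 fell and 1 rose, where 21.7% of all tested probe sets were called and 12.8% were called lower. The HIF subunits Hif1a (-0.86 ± 0.12) and Epas1 (-0.73 ± 0.24), the prolyl hydroxylase Egln1 (-0.63 ± 0.11), the growth factor Vegfa (-0.62 ± 0.18) and the lactate dehydrogenase Ldha (-0.45 ± 0.11) were among those that fell, and the aldolase Aldoa rose by 0.43 ± 0.11. With both tocopherols, where Bnip3 rose, 4 of 19 fell and 0 rose by limma, against 6.43% of all tested probe sets called. Those that fell were Epas1 (-0.93 ± 0.24), Egln1 (-0.52 ± 0.11), Hif1a (-0.47 ± 0.12) and Pgk1 (-0.45 ± 0.11). The median over this list was 0.05 in the age comparison, -0.08 with alpha-tocopherol and 0.00078 with both tocopherols.

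Among 23 kinases, phosphatases, 14-3-3 proteins and cochaperones tied to Bad and Bcl2, 1 rose and 2 fell with age (4.94% of all tested probe sets were called). The 14-3-3 genes Ywhaq (0.44 ± 0.11) and Ywhaz (-1.06 ± 0.30) moved apart, and the survival kinase Pim3 fell by 0.50 ± 0.10 on the log2 scale. With alpha-tocopherol 2 rose, the kinase Akt2 (0.49 ± 0.15) and the 14-3-3 gene Ywhab (0.42 ± 0.13), and 3 fell, Ywhah (-0.71 ± 0.13), Ywhaq (-0.69 ± 0.11) and the cochaperone Bag1 (-0.39 ± 0.12). These 5 of 23 match the share of 21.7% over all tested probe sets. With both tocopherols, against 6.43% over all, 1 of 23 was called, the fall of Ywhaq (-0.41 ± 0.11, and 0.22 at a further probe set). Of the genes named from these lists, the 22 for alpha-tocopherol stood on arrays with higher hybridization and 18S signals: once the hybridization signal was added 1 stayed called, once the 18S signal was added 3, and all 22 kept their sign under both. For both tocopherols 5 and 6 of 11 stayed called, and for age 7 and 8 of 8. Leaving out old control 5 kept 15 of 22 calls for alpha-tocopherol, and leaving out animal 3 of the alpha-tocopherol group kept 16 of 22. For both tocopherols, 5 of 11 calls were left without old control 5, and 6 of 11 without old control 4, without animal 1 or without animal 2 of that group. For age, 5 of 8 were left without old control 1. With F1-labelled old controls alone 15 of 22 calls stayed for alpha-tocopherol, 3 of 11 for both tocopherols and 3 of 8 for age. Between the supplements limma called 0 genes in the 6 lists, against 0.564% of all tested probe sets. In the order given here, 1, 1, 1, 2, 3 and 6 genes had an unadjusted p below 0.05. The share of all tested probe sets at this unadjusted level is not given here, so these counts have no background beside them.

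**Figure D3:**
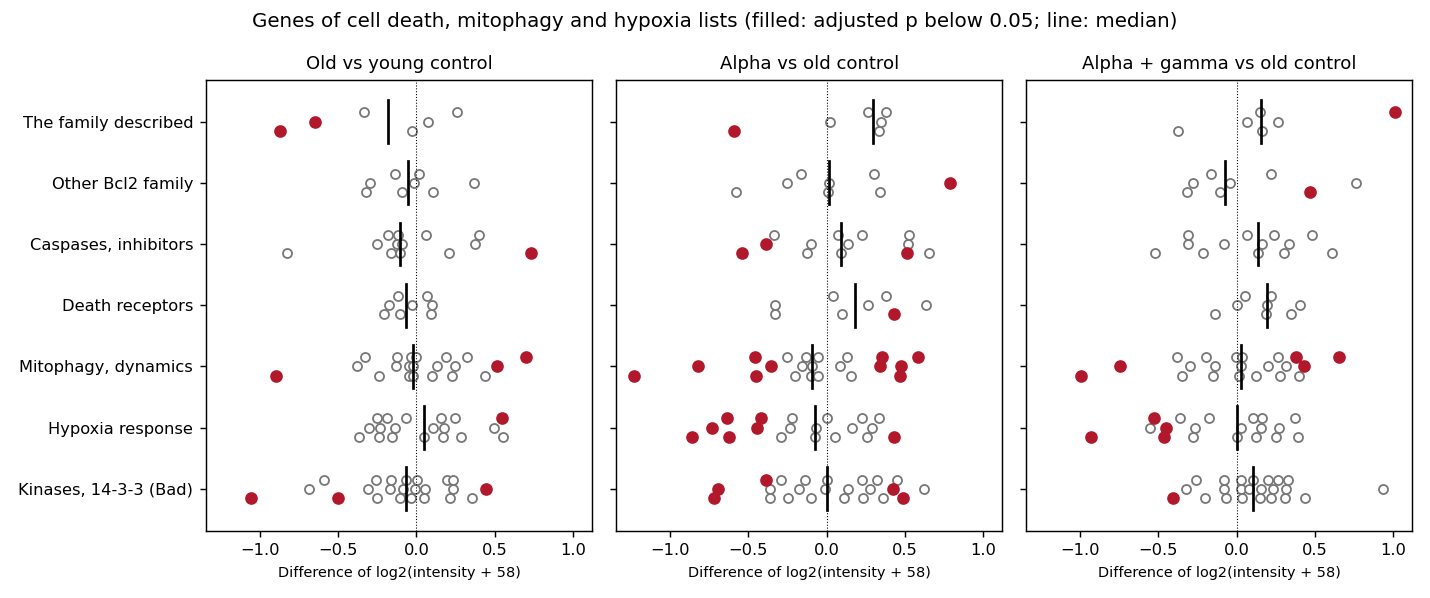
Differences of log2(intensity + 58) (x axes) for each tested gene of 7 lists (rows) in old against young controls and in either supplement against old controls, 5 animals per group; filled points have an adjusted p below 0.05 and black lines mark list medians. The medians stay between -0.18 and 0.30 in all 7 lists, with called genes on both sides of 0 in the mitophagy list under each comparison.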

How the data were processed

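Transcripts of 20 mouse hearts were measured on oligonucleotide arrays, 1 per animal; per the labels' protocols, polyadenylated RNA was purified and biotin-labelled complementary RNA was hybridized. The authors deposited a linear intensity for each probe set and array. The software behind it is not given in the sources. Every array has, by its values, a trimmed mean of 1501 with 2% left out at each end. Of 12422 probe sets that are not controls, 10833 carried 1 gene symbol, 396 several and 1193 none. RefSeq (GRCm38.p6) matched 10817 by gene ID and changed 0 symbols.

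The deposited intensities were turned into log2(intensity + 58), without further scaling, because array medians differed by at most 0.117 (log2). After removal of 66 controls and of the dimmest 40%, 7453 probe sets were tested. The model held the 4 group means (limma 3.58.1 under R 4.3.3, trended and robust eBayes, 16 residual degrees of freedom). Tests were two-sided with Benjamini-Hochberg adjustment and a threshold of 0.05. Exact permutation tests served for array measures.

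Every family probe set is described, each tested on its own; where a gene has more than 1, they are called brighter and dimmer by mean intensity. From each list and comparison up to 6 called genes are named, by size of change. The 3 genes most correlated over arrays are named for each of the 2 family probe sets with the smallest F test p. The members and lists were chosen with earlier results of these data known. Alternatives were other pseudocounts, filters, scalings and variance models, array weights, fits of 2 groups, a replicate block, 2 covariates and leaving out animals; those for the lists were added after seeing the data. Animals were not treated as paired by replicate number. Deviations of same-numbered animals from their group means correlated at -0.084 to 0.10, so no broad shared shift was seen. These values cannot show whether same-numbered animals were handled together.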

Additional observations from a re-analysis of the deposited data

Results flagged for a closer look

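Single animals that stand apart were looked for in 32 groups of 5 values (8 probe sets in 4 groups), and 2 groups held one; chance alone gives about 1 in 20. For Bcl2l1, old control 4 had a log2 value of 11.42 (intensity 2686.5), with the other old controls at 10.92 to 10.99. For the dimmer Bcl2 probe set, animal 3 fed both tocopherols had a log2 value of 7.86 (intensity 174.9), with the others of its group at 9.48 to 9.95.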

How the results depend on the processing

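The 2 calls for age and the Bnip3 call with both tocopherols stayed past the threshold in each of 23 alternatives (10 that leave out an animal and 13 others), and the Mcl1 call with alpha-tocopherol in 21 of 23. With alpha-tocopherol the family count was 2 under quantile normalization, with array weights and with F1-labelled old controls alone, 0 with the hybridization or the 18S signal as a covariate, and 1 to 2 without 1 animal (2 without old control 4 or without animal 1 of the alpha-tocopherol group). With both tocopherols it was 2 with array weights. Between the supplements it was 0 to 1 without 1 animal. With a replicate block the counts were 2 for age, 1 with alpha-tocopherol, 1 with both tocopherols and 0 between the supplements. Over all probe sets they were 347, 1578, 451 and 34. The block ended the calls of Ywhaz for age, Cycs with alpha-tocopherol and Bnip2 with both tocopherols. It also added 1 call between the supplements, in the list of kinases, phosphatases and 14-3-3 proteins. Changes of sign occurred only in family probe sets that were not called. With the hybridization covariate, Bad (brighter) was 0.0047 for age, -0.019 with alpha-tocopherol and 0.064 between the supplements, and with alpha-tocopherol Bcl2l2 was -0.11 and Bcl2 (dimmer) 0.080. With the 18S covariate, Bcl2l2 was -0.13 with alpha-tocopherol, Bcl2 (dimmer) -0.17 with both tocopherols and Bad (brighter) 0.0088 between the supplements. Leaving out 1 animal gave ranges across 0 for Bad (brighter, -0.13 to 0.089) and Mcl1 (-0.013 to 0.13) with age, Bcl2l2 with alpha-tocopherol (-0.011 to 0.040), Bcl2 (dimmer) with both tocopherols (-0.094 to 0.43), and between the supplements for Bad (dimmer, -0.068 to 0.32) and Bcl2l2 (-0.0036 to 0.16). The cause of these shifts was not tested. The 5 arrays per group limit the precision, and dim probe sets have the widest errors.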
